A study of Mus musculus with 20 samples.

Results

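Lung epithelium genes were measured across sorted neural cells of the neonatal mouse brain. The 10 genes were chosen by name from the 45705 genes of the deposited table because RNA of this kind had been seen in the libraries of batch 3, so their height in batch 3 is the reason for the choice and is described here with no test. They are *Sftpa1*, *Sftpb*, *Sftpc*, *Sftpd* and *Napsa* for the surfactant-making alveolar cell (AT2 cell), *Scgb1a1*, *Scgb3a2* and *Bpifa1* for the club and other secretory cells of the airway, and *Ager* and *Cldn18* for the flat gas-exchange cell (AT1 cell). All 10 were among the 27614 genes with at least 1 RPKM (read numbers divided by gene length and by the size of the library) in at least 4 of the 20 libraries, which were the genes tested.

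Cells came from the periventricular zone of Swiss Webster pups at postnatal day 5. All pups of a litter were pooled, males and females together, the labels name no transgene or treatment in any group, and cells were sorted live by the surface antigens CD133, LeX (CD15), CD140a and NG2. The populations were neural stem cells (NSC) and the progenitors PFMP, GRP3, GRP2/MP3 and BNAP/GRP1, each with 1 library in each of batches 1 to 4, and a library is named by its population and batch, as in NSC 3. What the libraries of a batch shared, such as a litter, a sort day or a sequencing run, was not given in the sources used here, so p-values measure the spread between these libraries.

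The airway and the alveolus are lined by different epithelial cells. Club cells secrete secretoglobins such as SCGB1A1 onto the airway surface, BPIFA1 is secreted by the upper airway as a host defence protein, AT2 cells make surfactant from lipids and the proteins SFTPA, SFTPB, SFTPC and SFTPD, and AT1 cells cover most of the gas-exchange surface. In the lung SFTPC is made by AT2 cells, while *Scgb3a2* is made along the airway, and NAPSA is a protease that helps to process SFTPB. None of these cells is part of the periventricular zone.

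The batch 3 libraries stood apart as a set. Pearson's r between them over all genes was 0.940 to 0.970 (median 0.966), against 0.332 to 0.909 (median 0.795) between populations within the other batches. Pairs from different batches reached 0.954 within a population and 0.946 between populations, with medians of 0.718 and 0.702. The coefficient of variation over 5 populations was taken in each batch for genes with a median of at least 50 RPKM there. It had a median of 6.08% in batch 3 and 54.4% to 59.5% in batches 1, 2 and 4. Globin and myeloid genes were also high in batch 3, with *Hbb-bs* at 91652 to 103020 RPKM there and 3.05 to 6345 in the other 15 libraries. Depth relative to BNAP/GRP1 1, read from the steps between low values, was 0.733 to 1.41 in batch 3 and 0.0395 to 1.00 elsewhere. The lowest was BNAP/GRP1 4, where the median gene was listed at 8.30 RPKM, so counts of genes with batch 3 above the rest are also given without that library, a choice made after the data were seen.

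The RefSeq table (GRCm38.p6) held promoters of 5 of the 10 members. Those printed show an airway gene that was high in batch 3, *Bpifa1*, beside 2 surfactant genes that were low there, *Sftpb* at 0.879 to 4.18 RPKM and *Sftpa1* at 0.507 to 1.25, while those of *Ager* and *Cldn18* are not shown. Each runs from 250 bases before to 50 bases after the start, 5′ to 3′ on the plus strand, at chr2:154142630-154142929 for *Bpifa1*, chr6:72304360-72304659 for *Sftpb* and chr14:41131538-41131837 for *Sftpa1*. Capitals mark TATAAA, the TATA box, and CAAG, the core bound by the lung factor NKX2-1, on either strand (TTTATA and CTTG).

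Bpifa1: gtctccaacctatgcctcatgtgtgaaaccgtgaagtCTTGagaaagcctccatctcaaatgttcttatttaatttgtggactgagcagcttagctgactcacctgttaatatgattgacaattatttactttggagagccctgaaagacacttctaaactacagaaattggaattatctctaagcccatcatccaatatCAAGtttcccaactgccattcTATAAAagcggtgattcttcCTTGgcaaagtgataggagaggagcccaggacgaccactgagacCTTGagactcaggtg

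Sftpb: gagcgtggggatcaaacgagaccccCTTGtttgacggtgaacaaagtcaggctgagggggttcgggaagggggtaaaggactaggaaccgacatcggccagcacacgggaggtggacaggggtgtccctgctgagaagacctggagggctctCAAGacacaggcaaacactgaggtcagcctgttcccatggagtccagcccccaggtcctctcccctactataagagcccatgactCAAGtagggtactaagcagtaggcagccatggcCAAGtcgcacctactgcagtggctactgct

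Sftpa1: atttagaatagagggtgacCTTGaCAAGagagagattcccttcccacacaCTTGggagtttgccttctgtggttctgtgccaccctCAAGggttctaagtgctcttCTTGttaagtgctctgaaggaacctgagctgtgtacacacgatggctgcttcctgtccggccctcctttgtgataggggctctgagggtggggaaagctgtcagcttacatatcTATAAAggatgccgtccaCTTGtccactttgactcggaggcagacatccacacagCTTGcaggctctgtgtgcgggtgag

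The *Bpifa1* window held TATAAA from 29 bases before the start and CAAG 4 times. In the *Sftpa1* window TATAAA began 30 bases before the start and CAAG occurred 7 times, while the *Sftpb* window held 4 CAAG but not the TATA box. The TATAAA letters were in 13.6% of all 32817 promoters of the table and CAAG in 90.6%, at a mean of 2.59 matches a promoter, so a CAAG match is common. Neither TGTTTAC, a forkhead motif (GTAAACA on the other strand), nor the C/EBP motif TTGCNNAA (TTNNGCAA on the other strand) was found in these 3 windows, and they were in 3.65% and 10.8% of all promoters. These are matches of letters only.

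The airway secretory genes carried nearly all of the lung epithelium signal in batch 3. *Scgb1a1* (ENSMUSG00000024653, chr19:9083636-9087958, minus strand, GENCODE vM21 on GRCm38), which encodes the main secretory protein of club cells, was at 839 RPKM in NSC 3, 965 in BNAP/GRP1 3, 947 in PFMP 3, 904 in GRP3 3 and 944 in GRP2/MP3 3. Of the other 15 libraries 9 listed it at 0, and the highest were BNAP/GRP1 4 at 13.6 and NSC 4 at 0.929. The groups did not overlap, and *Scgb1a1* stood above 99.6% to 99.7% of all genes in each batch 3 library.

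*Bpifa1* (ENSMUSG00000027483, chr2:154142880-154149219, plus strand) was at 687 RPKM in NSC 3, 775 in BNAP/GRP1 3, 784 in PFMP 3, 757 in GRP3 3 and 758 in GRP2/MP3 3. The other 15 libraries ran from 0 in 7 libraries to 3.18 in NSC 4 and 9.30 in BNAP/GRP1 4. *Scgb3a2* (ENSMUSG00000038791), another secretoglobin of the airway, was lower, with 64.1, 72.3, 63.1, 61.6 and 68.0 RPKM in NSC 3, BNAP/GRP1 3, PFMP 3, GRP3 3 and GRP2/MP3 3. It was listed at 0 in all 10 libraries of batches 1 and 2, and at most at 20.8 (BNAP/GRP1 4) or 1.77 (GRP3 4) in batch 4. All 3 airway genes thus separated batch 3 from the rest in every population.

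**Figure D1:**
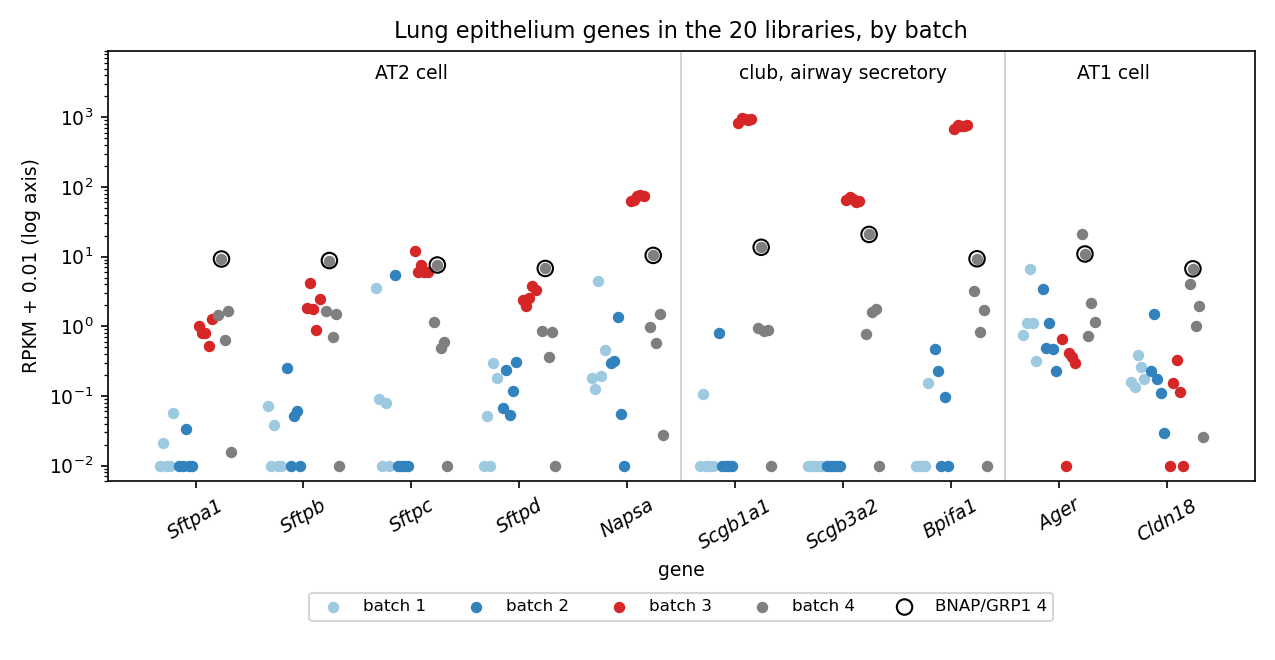
RPKM of the 10 lung epithelium genes in the 20 libraries on a log axis, with 0.01 added so that a value of 0 is drawn; each point is 1 library, coloured by batch, and circles mark BNAP/GRP1 4. *Scgb1a1*, *Bpifa1*, *Scgb3a2* and *Napsa* of batch 3 (at least 61.6 RPKM) lie above all other libraries, while *Ager* and *Cldn18* of batch 3 (at most 0.649 RPKM) do not.

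Among the AT2 members only *Napsa* reached the level of *Scgb3a2*, the lowest of the airway genes, and it lay well below *Scgb1a1* and *Bpifa1*. *Napsa* (ENSMUSG00000002204, chr7:44572380-44586862, plus strand) was at 62.5 RPKM in NSC 3, 64.6 in BNAP/GRP1 3, 73.2 in PFMP 3, 75.6 in GRP3 3 and 73.5 in GRP2/MP3 3. In the other 15 libraries it ran from 0 to 10.4 (BNAP/GRP1 4), with GRP2/MP3 1 next at 4.51. The groups did not overlap. The gene Gm15396 lies on the opposite strand within its span, and whether reads were counted by strand was not given in the sources used here. Globin and myeloid genes were high in the batch 3 libraries too, and which cells the *Napsa* RNA came from was not tested.

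*Sftpc* (ENSMUSG00000022097, chr14:70520949-70524081, minus strand), the surfactant protein that marks AT2 cells in the lung, was at 12.1 RPKM in NSC 3, 6.04 in BNAP/GRP1 3, 5.91 in PFMP 3, 6.05 in GRP3 3 and 7.56 in GRP2/MP3 3. These values overlapped the other 15 libraries through BNAP/GRP1 4 (7.57) and lay above the other 14, of which NSC 2 was highest at 5.40. *Sftpd* (chr14:41172214-41185149, minus strand), a collectin of surfactant and airway fluid, was at 2.36, 1.95, 3.26, 3.78 and 2.55 RPKM in the same order. It was likewise overlapped only by BNAP/GRP1 4, at 6.75, with NSC 4 next at 0.846.

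*Sftpb* (chr6:72304610-72314371, plus strand), which is needed for the surfactant film, was at 1.85 RPKM in NSC 3, 4.18 in BNAP/GRP1 3, 2.47 in PFMP 3, 0.879 in GRP3 3 and 1.79 in GRP2/MP3 3. *Sftpa1* (chr14:41131782-41136452, plus strand), the collectin SFTPA, was at 1.00, 0.781, 1.25, 0.507 and 0.783 RPKM. Both overlapped batch 4, where *Sftpb* was at 1.63 in NSC 4 and *Sftpa1* at 1.64 in GRP3 4, and both were higher still in BNAP/GRP1 4 (8.77 and 9.23). In batches 1 and 2 neither passed 0.244 RPKM.

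The AT1 members went against the label. *Ager* (ENSMUSG00000015452, chr17:34597862-34600936, plus strand), the receptor RAGE of AT1 cells, was at 0.649 RPKM in NSC 3, 0 in BNAP/GRP1 3, 0.289 in PFMP 3, 0.355 in GRP3 3 and 0.405 in GRP2/MP3 3, below the median of 1.10 in the other 15 libraries, which ran from 0.218 to 21.4 (NSC 4). *Cldn18* (chr9:99689461-99717267, minus strand), a tight junction claudin, was listed at 0 in NSC 3 and PFMP 3 and at 0.104 to 0.321 in the other batch 3 libraries, against 0.0160 to 6.67 (BNAP/GRP1 4) elsewhere. Neither gene had batch 3 as the highest batch in any population, so the 10 genes are named here by class and not as 1 lung profile.

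In all, 4 of the 10 genes (*Scgb1a1*, *Bpifa1*, *Scgb3a2* and *Napsa*) had all 5 batch 3 libraries above all other 15, where 5.18% of the 27614 genes tested did. Without BNAP/GRP1 4 the count was 6, with *Sftpc* and *Sftpd* added, against 7.58% of genes, and with median-of-ratios scaling of all 20 libraries it was 5, with *Sftpc* added. None had all 5 below the other 15, where 6.97% of genes did. Since batch 3 chose the genes, nothing is read from these counts.

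The members just inside and just outside that separation were *Scgb3a2*, whose lowest batch 3 value was 61.6 RPKM against 20.8 for the highest other library, and *Sftpc*, with 5.91 against 7.57.

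Rank within a library does not depend on the scaling between libraries, but it does depend on how many genes are listed at 0. Genes above 0 numbered 20116 (GRP2/MP3 3) to 22578 (NSC 3) in batch 3 and 38191 in BNAP/GRP1 4. A gene with a low value above 0 therefore ranks higher in batch 3 than in BNAP/GRP1 4. In batch 3 *Bpifa1* stood above 99.5% to 99.6% of genes, *Scgb3a2* above 96.4% to 97.0% and *Napsa* above 96.3% to 97.1%. *Sftpc* stood above 82.4% to 86.9% and *Sftpa1*, the lowest of the AT2 members, above 67.8% to 72.6%. In BNAP/GRP1 4, where *Sftpa1*, *Sftpb* and *Sftpd* had higher RPKM than in batch 3, the percentiles were lower, from 39.6 for *Sftpd* to 55.6 for *Sftpa1*.

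**Figure D2:**
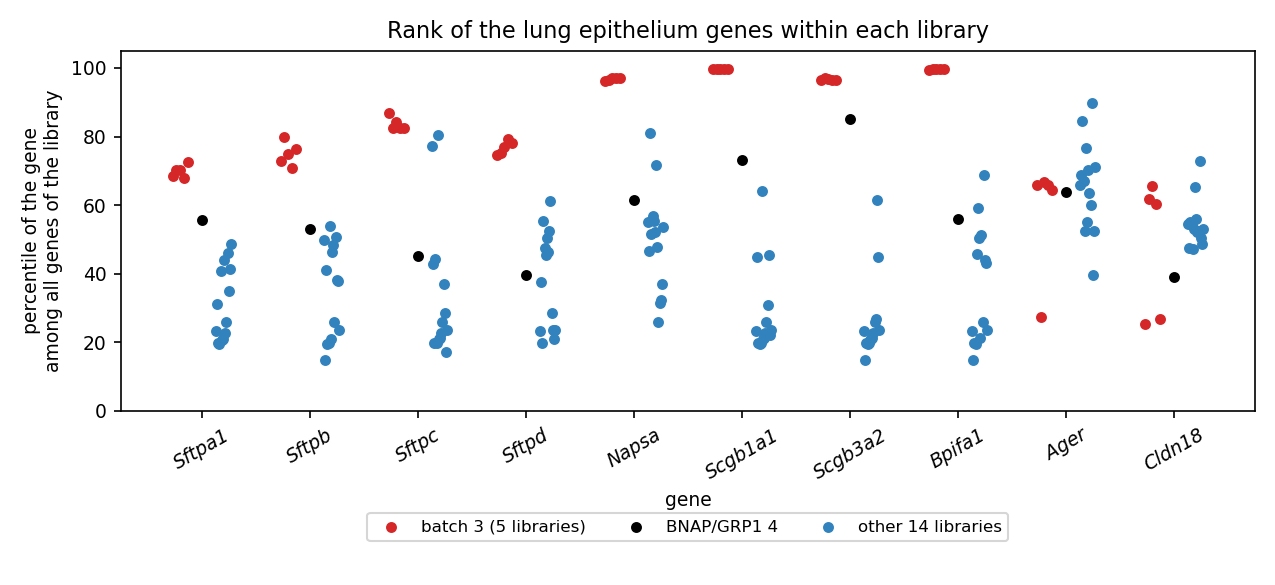
Percentile of each of the 10 genes among all genes of the same library, with the 5 batch 3 libraries, BNAP/GRP1 4 and the other 14 libraries drawn apart; each point is 1 library. All members but *Ager* and *Cldn18* rank higher in batch 3 than in BNAP/GRP1 4, and *Scgb1a1* lies at 99.6 to 99.7 in batch 3. Fewer genes are listed above 0 in batch 3 (20116 to 22578) than in BNAP/GRP1 4 (38191), which raises the ranks of low values there.

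The make-up of the signal was nearly the same in the 5 batch 3 libraries. The RPKM of the 10 genes summed to 1671 to 1890.0 in batch 3 (median 1857) and to 0.536 to 104 in the other 15 libraries (median 2.75). The 3 airway genes gave 95.2% to 95.9% of the sum in batch 3 (median 95.3%) and the 5 AT2 genes 4.11% to 4.79% (median 4.64%). The 4 surfactant proteins without *Napsa* gave 0.620% to 1.03%, and the AT1 genes 0.00768% to 0.0391%. These shares depend on the genes chosen. Over all genes of the AT2, AT1 and club lists the median AT2 share of batch 3 was 91.3%, with *Lyz2* and *Cd74* counted as AT2 genes. They are shares of RPKM from amplified RNA, scaled to gene lengths not given in the sources used here, and need not equal shares of transcripts. In bulk samples fewer cells of a type and less RNA per cell cannot be told apart.

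Ratios between the high members hardly varied, while those to the surfactant proteins did. *Scgb1a1* was 1.19 times *Bpifa1* in GRP3 3 and 1.25 times in GRP2/MP3 3, the extremes of the 5 libraries, and 13.1 to 15 times *Scgb3a2*. The ratio of *Scgb1a1* to *Sftpc* ran from 69.5 in NSC 3 to 160.3 in PFMP 3, and that of *Sftpc* to *Sftpb* from 1.45 in BNAP/GRP1 3 to 6.89 in GRP3 3. The coefficients of variation over the 5 libraries were 5.06% for *Bpifa1*, 5.48% for *Scgb1a1*, 6.57% for *Scgb3a2* and 8.42% for *Napsa*, close to the 6.08% median of the genes of at least 50 RPKM, and 26.3% to 55% for the 4 surfactant proteins.

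NSC 3 differed from the 4 progenitor libraries of its batch. It was lowest of the 5 for *Scgb1a1*, *Bpifa1* and *Napsa*, at 0.887, 0.897 and 0.852 times the median of the other 4, and highest for *Sftpc* and *Ager*, at 2.00 and 2.02 times. It was the batch 3 library with the ciliary genes that airway ciliated cells share with the ependyma: *Dynlrb2* was at 564 RPKM in NSC 3, and the sum of 14 such genes was 1725 in NSC 3, the highest of batch 3, against a batch 3 median of 10.7. In the other 15 libraries this sum ran from 5.13 to 16946. With 1 library of each population in the batch this difference has no replicate check.

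Some other genes listed for the airway secretory cell were also high in batch 3. In counts by batch the marker lists are taken without the 10 members. The lists too were chosen with earlier results of these data known, so their counts are described with no test. Of the 17 other tested genes of a club cell list, 6 (35.3%) had all batch 3 libraries above the other 15, beside the 5.18% of all genes, and 8 (47.1%) did without BNAP/GRP1 4, with *Bpifb1* and *Pigr* added, beside 7.58%. The median log2 difference of means on log2(RPKM + 1) was 1.83 over these 17, where it was -0.64 over all genes tested. *Scgb3a1*, a secretoglobin of the larger airways, was at 119.8 to 153 RPKM (other libraries 0 to 21.9) and *Hp*, haptoglobin, at 75.8 to 81.3 (0 to 15). Chosen after their values were seen, *Cyp2f2*, a cytochrome P450 of club cells, was at 42.6 to 50.4 RPKM (0 to 3.68), and *Retnla*, *Ltf* and *Reg3g* complete the 6. Globin and myeloid genes were high in these libraries too, and which cells the RNA of the 6 came from was not tested. The goblet cell mucins *Muc5b* and *Muc5ac* were near 0, at up to 0.0215 and 0.0299 RPKM, and *Upk3a* was listed at 0 in all 5.

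The AT2 list was split. Of its 17 tested genes outside the members 4 (23.5%) had batch 3 above the rest, beside 5.18% of all genes tested. They were *Lyz2*, *Cd74*, *Ctsh* and *Elovl1*, while 2 (11.8%) had batch 3 below, beside 6.97% of all genes. Without BNAP/GRP1 4, *Abca3* made 5 above (29.4%), beside 7.58% of all genes. The median log2 difference was -0.49 over these 17 genes and 0.44 over the 22 with the members. The first 3 are also made by macrophages: *Lyz2*, lysozyme, was at 20269 to 22692 RPKM (other libraries 1.62 to 1200), *Cd74* of antigen presentation at 2010.2 to 2278 (0.0524 to 14.2) and *Ctsh*, a cathepsin that helps to process SFTPB and SFTPC, at 290.2 to 335 (0.349 to 289). *Abca3*, the lamellar body lipid transporter, was at 7.75 to 8.67 RPKM, overlapped only by BNAP/GRP1 4 at 10.9. *Lamp3* (0.136 to 0.465) and *Slc34a2* (0 to 0.126), both of them AT2 markers, were near 0 in batch 3.

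Of the 12 other tested AT1 genes, 1 (8.33%) had batch 3 above and 3 (25%) below the rest, beside the 5.18% and the 6.97% of all genes, with a median log2 difference of -0.95. Both counts were the same without BNAP/GRP1 4. The one above was *Cav1*, the caveolae protein that endothelium also makes, at 64.8 to 72.0 RPKM (1.01 to 23.2). Next highest were *Pdpn* at 40.1 to 53.1 RPKM (3.97 to 108) and *Hopx* at 6.81 to 16.1 (2.66 to 147). Both overlapped the other libraries, with batch 3 medians above theirs, at 45.7 against 14.4 and 9.02 against 4.80. *Aqp5*, a water channel of AT1 cells and glands, was at 0.0477 to 1.13 RPKM.

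Most factors and keratins of epithelium were at low RPKM in batch 3. *Nkx2-1*, the master regulator of lung epithelium, was at 0 to 0.153 RPKM in batch 3 and at 0.0751 to 21.3 elsewhere, and *Foxa3* was listed at 0 in all 5. Of 12 tested lung epithelium factors 1 (8.33%, beside 5.18% of all genes) had batch 3 above: *Cebpa*, which myeloid cells also use, at 66.3 to 79.2 RPKM (0.0657 to 33.5). Without BNAP/GRP1 4 there were 2 (16.7%, beside 7.58% of all genes), with *Gata6* added. Of 12 tested general epithelium genes none did, or 1 (8.33%, *Krt19*) without BNAP/GRP1 4. *Epcam* was at 2.35 to 3.57 RPKM (0 to 8.27), *Krt8* at 1.55 to 2.96 (0 to 47.0) and *Krt19* at 1.38 to 2.32 (0 to 7.38). Their batch 3 medians of 2.68, 2.48 and 1.65 lay above the 0.573, 0.0360 and 0.0808 of the other libraries. Over the 12 genes the median log2 difference was -0.03, where it was -0.64 over all genes tested. None of 5 basal cell genes had batch 3 above, with or without BNAP/GRP1 4, *Krt5* being at 0 to 0.287.

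Genes that process, clear or regulate surfactant gave, outside the members, 4 of 9 tested (44.4%, beside 5.18% of all genes) with batch 3 above the rest, and 6 (66.7%, beside 7.58%) without BNAP/GRP1 4, with *Abca3* and *Gata6* added. The 4 were *Ctsh*, *Cebpa* and the receptor chains for GM-CSF, which macrophages need to clear surfactant, *Csf2ra* at 92.7 to 108 RPKM (0.938 to 12.3) and *Csf2rb* at 75.4 to 87.6 (0.134 to 16.1).

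**Figure D3:**
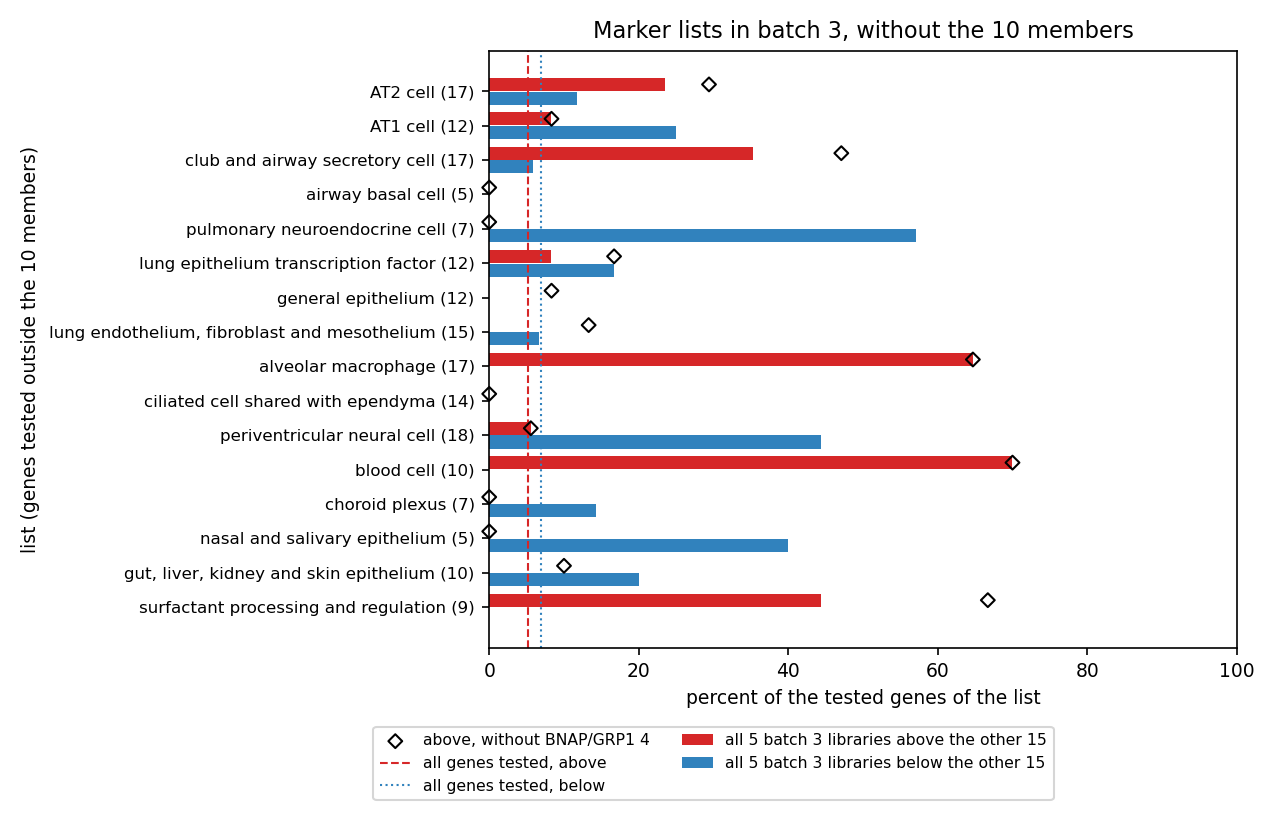
Percent of the tested genes of each of 16 marker lists, without the 10 members, with all 5 batch 3 libraries above (red) or below (blue) all other 15, with dashed and dotted lines for all 27614 genes tested (5.18% and 6.97%); diamonds give the share above without BNAP/GRP1 4. The blood list (70.0%), the alveolar macrophage list (64.7%), the surfactant list (44.4%) and the club cell list (35.3%) have the longest red bars. The lists were chosen with earlier results of these data known.

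Markers of other cells moved with the lung genes. Of 17 tested alveolar macrophage genes 11 (64.7%) had batch 3 above the rest, with or without BNAP/GRP1 4, beside 5.18% and 7.58% of all genes. The summed RPKM of the list ran from 3333 to 3741 in batch 3 and from 256 to 3517 in the other 15 libraries. None of its genes was under 1 RPKM in all 5 batch 3 libraries. *Chil3*, a chitinase-like protein of these cells, was at 558 to 658 RPKM (0 to 11.3), *Ctsk* at 431 to 488 (0.0958 to 8.64) and *Ear2* at 309 to 398 (0 to 51.8). Of 10 blood genes 7 (70.0%) were above, also without that library, with a sum of 228639 to 252873 against 24.2 to 26557. As the lists were chosen with earlier results of these data known, nothing is read from these counts beside the shares of all genes. The part of macrophages and blood cells in the lung epithelium values was not tested.

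Lists for other cells and tissues had few or no such genes. None of the 14 ciliary genes, of 15 genes of lung endothelium, fibroblast and mesothelium, of 7 neuroendocrine genes, of 7 choroid plexus genes, of 5 nasal and salivary genes or of 10 gut, liver, kidney and skin genes had all batch 3 libraries above the other 15, where 5.18% of all genes tested did. Without BNAP/GRP1 4 there were 2 of the 15 (13.3%, *Wnt2* and *Msln*) and 1 of the gut, liver, kidney and skin genes (10%, *Afp*), beside 7.58% of all genes, and still none in the other 4 lists. *Bpifa2*, the salivary relative of *Bpifa1*, was listed at 0 in all 5 batch 3 libraries, and 16 of the 17 nasal and salivary genes in the table were under 1 RPKM in all 5. Of 18 genes of periventricular neural cells, 8 (44.4%, beside 6.97% of all genes) had all batch 3 libraries below the rest, among them *Fabp7*, a radial glia gene, at 140.4 to 239 RPKM (301 to 14732) and *Gfap* at 0 to 0.0084 (0.0269 to 268), while *Vim* was above. The marker of the sorted NSC, *Prom1*, which encodes CD133, was at 10 RPKM in NSC 3 and at 0.255 to 1.36 in the 4 progenitor libraries of batch 3.

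The genes whose pattern was most like the mean log2(RPKM + 1) of the 10 members over the 20 libraries were *Ciita* (r = 0.995), *Cd3g*, *Spib*, *Lrg1* and *Gbgt1* (each r = 0.992). *Ciita*, which switches on MHC class II genes, was at 7.62 to 8.52 RPKM in batch 3 and 0.00671 to 5.64 elsewhere. Of 27604 genes compared, 15 had r of at least 0.99 and 303 of at least 0.95. The 20 points include the 5 alike libraries of batch 3, so r measures mainly the step between batch 3 and the rest.

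The batches chose the genes, but the populations did not, so each progenitor was compared with NSC by limma's moderated test over all 27614 genes, adjusted by the Benjamini-Hochberg method. No member was called at an adjusted p under 0.05 in any progenitor, where 0.760% of genes were called in BNAP/GRP1, 1.14% in PFMP, 1.05% in GRP3 and 1.12% in GRP2/MP3, and none had an unadjusted p under 0.05. The log2 fold changes ran from -1.72 to 0.95. Standard errors were 1.75 to 2.91 for the 4 members that separate batch 3, since each population holds 1 high library, and 0.602 to 0.946 for the others.

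*Sftpc* had the lowest of these fold changes in each progenitor. Its mean was 5.54 ± 4.69 RPKM in NSC, 3.42 ± 3.95 in BNAP/GRP1, 1.48 ± 2.96 in PFMP, 1.67 ± 2.93 in GRP3 and 2.01 ± 3.70 in GRP2/MP3 (SD, n = 4 each). In NSC it was at 3.55, 5.40, 12.1 and 1.14 RPKM in batches 1 to 4. In BNAP/GRP1 the values were 0.0796, 0, 6.04 and 7.57, and in PFMP 0, 0, 5.91 and 0. GRP3 had 0.0699, 0, 6.05 and 0.579, and GRP2/MP3 had 0, 0, 7.56 and 0.482. NSC was the highest population in batches 1, 2 and 3, and BNAP/GRP1 in batch 4. The log2 fold changes against NSC were -0.91 in BNAP/GRP1, -1.72 in PFMP, -1.52 in GRP3 and -1.50 in GRP2/MP3 (SE 0.946 each), with a limma adjusted p of 0.866 in BNAP/GRP1 and of 1.00 in the other 3.

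With the batch number as a block, no member was called either, where 2.09% of genes were called in BNAP/GRP1, 2.79% in PFMP, 2.60% in GRP3 and 3.08% in GRP2/MP3. The standard errors of the members were then 0.436 to 0.665. *Sftpc* had unadjusted p of 0.00793 in PFMP, 0.0165 in GRP3 and 0.0180 in GRP2/MP3, with limma adjusted p of 0.153, 0.250 and 0.244, and 0.442 in BNAP/GRP1. The block without BNAP/GRP1 4, a fit chosen after the data were seen, called *Sftpc* lower in all 4 progenitors. Its log2 fold changes there were -1.66 in BNAP/GRP1, -1.72 in PFMP, -1.52 in GRP3 and -1.50 in GRP2/MP3, with limma adjusted p of 0.0327, 0.0118, 0.0277 and 0.0259. That fit called 3.58%, 4.81%, 3.88% and 4.92% of 23132 genes lower in the same order. Low values of a library were whole multiples of a smallest step, and *Sftpc* rested on 28 steps in NSC 1 and 99 in NSC 2, on 9 in NSC 4 and on 15 in BNAP/GRP1 4.

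**Figure D4:**
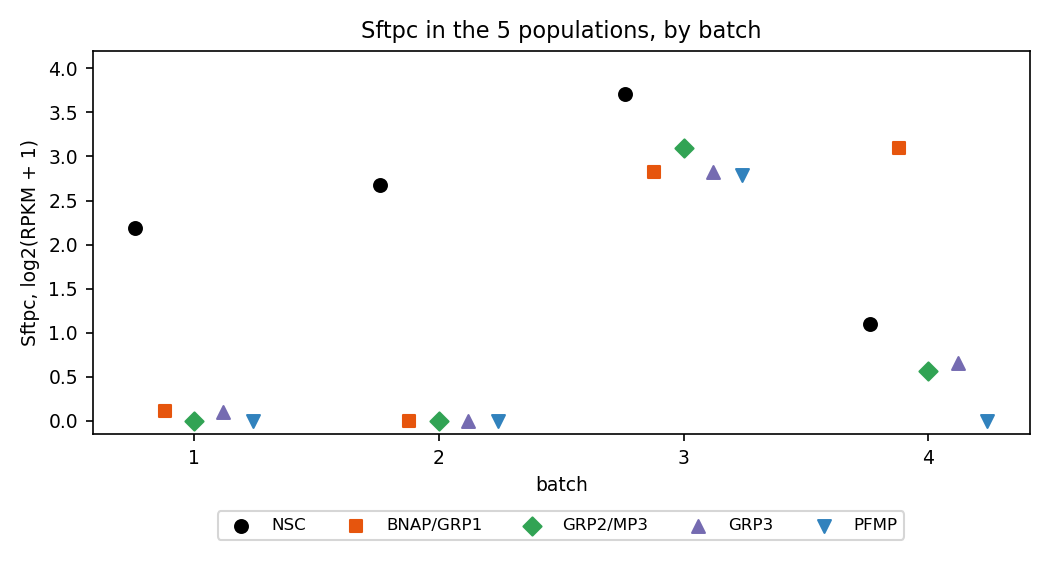
*Sftpc* as log2(RPKM + 1) in the 5 populations, by batch; each point is 1 library, and symbols mark the population. NSC (3.55, 5.40 and 12.1 RPKM) is the highest point in batches 1, 2 and 3, and BNAP/GRP1 4 (7.57 RPKM) in batch 4.

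*Ager* had log2 fold changes of -1.50 to -0.72 against NSC, with no limma adjusted p under 0.866 without the block or 0.374 with it, and with the block an unadjusted p of 0.0362 in PFMP. The lists of the pathway gave few calls: among 22 tested AT2 genes *S100g* and *Hc* were called lower in GRP2/MP3 and PFMP and *Hc* in GRP3, among 14 AT1 genes *Hopx* was lower in GRP2/MP3, GRP3 and PFMP, and no club cell gene was called in any progenitor. In contrast 12 of 14 ciliary genes shared with the ependyma were called lower in each of the 4 progenitors. With the block, *S100g* and *Hc* were also lower in BNAP/GRP1. *Igfbp2* of the AT1 list was then lower in BNAP/GRP1 and, with *Pdpn*, in GRP2/MP3. *S100g* and *Ctsh* were lower with it in GRP3 and *Ctsh* in PFMP. *Etv5*, a factor of AT2 cells, was higher with it in GRP3, and *Cbr2* of the club cell list in GRP2/MP3. The paper names *Hopx* a marker of NSC that is lower in all 4 progenitors. It names *Etv5* a factor of glial fate raised only in GRP3. Which cells these calls came from was not tested. The median log2 fold change of the AT2 list was 0.47, 0.05, -0.10 and -0.18 in BNAP/GRP1, PFMP, GRP3 and GRP2/MP3, beside 0.38, -0.20, 0.05 and -0.08 over all genes tested.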

How the data were processed

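RNA of sorted cells was amplified from polyA RNA (MessageAmp II), made into TruSeq libraries and sequenced on a NextSeq500. Per the submitters' notes the authors used FastQC 0.11.9, cutadapt 3.4, STAR 2.6.1 on GRCm38, Salmon 1.9.0 and DESeq2 1.26.0, and the deposited values are the authors' RPKM for 45705 genes, with the gene lengths, the read totals and the strand setting not given in the sources used here. Absolute depth is unknown, so no counting interval is given. Steps between low values, whole within 0.05 for 149 of 151 values under 100 steps, gave relative depth and the number of steps behind a value.

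The members and the 16 lists were chosen with earlier results of these data known. Named are the 10 members, the up to 4 highest genes of each list in batch 3 with defining genes near 0, and the 5 genes most like the members. *Cyp2f2*, *Retnla*, *Ltf*, *Reg3g*, *Abca3*, *Prom1*, the list genes added without BNAP/GRP1 4 and those named for a call against NSC were added after their values were seen, as was the count of lists without the members. The values entered as log2(RPKM + 1), and the genes reaching 1 RPKM in 4 or more libraries were tested with limma 3.58.1 in R 4.3.3 (eBayes with trend, all 20 libraries, a mean for each population, no batch term, as the methods name none), and p-values were adjusted by Benjamini-Hochberg over all genes tested. A gene is called at an adjusted p under 0.05. The numbers pair the samples, since the labels call them batches: after taking out population means, r between libraries had medians of 0.337, 0.262, 0.769 and 0.581 within batches 1 to 4 and -0.204 between. Alternatives were another pseudocount, filter and scaling, a replicate block, fewer populations and left-out libraries. The fit was tested on simulated data. Summaries used Python 3.11.15, pandas 2.3.3 and matplotlib 3.10.9.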

Additional observations from a re-analysis of the deposited data

Results flagged for a closer look

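In each population a gene's 4 libraries were checked for 1 library far from the other 3 (a gap to the nearest of them above Dixon's 95% critical value, as a share of the range), which chance flags in about 5% of groups. Of 50 groups 34 had such a library, 26 of them the batch 3 library and 6 the batch 4 library. Since the genes were chosen for their height in batch 3, nothing is read from this count beside the 5%. No cause was weighed.

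For the airway genes the library apart was that of batch 3. *Scgb1a1* was at 839 RPKM in NSC 3, 965 in BNAP/GRP1 3, 947 in PFMP 3, 904 in GRP3 3 and 944 in GRP2/MP3 3. *Bpifa1* was at 687, 775, 784, 757 and 758 in the same libraries. *Scgb3a2* was flagged at 64.1 in NSC 3, 63.1 in PFMP 3, 61.6 in GRP3 3 and 68.0 in GRP2/MP3 3, and not in the BNAP/GRP1 population, where the batch 4 library was at 20.8.

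Of the AT2 genes, *Napsa* was flagged in all 5 batch 3 libraries, at 62.5, 64.6, 73.2, 75.6 and 73.5 RPKM in NSC, BNAP/GRP1, PFMP, GRP3 and GRP2/MP3. *Sftpc* was flagged at 5.91 in PFMP 3, 6.05 in GRP3 3 and 7.56 in GRP2/MP3 3, *Sftpd* at 2.55 in GRP2/MP3 3 and 3.26 in PFMP 3, *Sftpb* at 2.47 in PFMP 3, and *Sftpa1* at 1.25 in PFMP 3 and 9.23 in BNAP/GRP1 4.

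For the AT1 genes no batch 3 library was flagged. *Ager* stood apart at 1.16 RPKM in PFMP 4, 6.64 in GRP2/MP3 1, 10.9 in BNAP/GRP1 4 and 21.4 in NSC 4, and *Cldn18* at 4.04 in NSC 4, 1.94 in GRP3 4 and 0.167 in PFMP 1.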

How the results depend on the processing

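The count of members called against NSC was 0 in each progenitor under each of these settings: pseudocount 0.1, no filter, a mean of at least 5 RPKM (which left 4 members to test), median-of-ratios scaling, only the compared populations, batch 3 left out, and the replicate block, where pairing by batch changed no call of a member and gave 0. Without batch 3 only 4 members passed the filter and were tested in each progenitor. With only the compared populations 4 members were tested in BNAP/GRP1, 1 in PFMP, 3 in GRP3 and 3 in GRP2/MP3. Each fit with 1 library left out, with 9 or 10 members tested, also gave 0. The replicate block without BNAP/GRP1 replicate 4, chosen after the data were seen, gave 1 (*Sftpc*) in each of the 4 progenitors, and the block with a pseudocount of 0.1 or without batch 3 (which left 4 members to test), also chosen then, gave 0. The cause was not tested. Over all alternatives the log2 fold change of *Sftpc* stayed negative, from -2.12 to -0.41 in BNAP/GRP1, -3.90 to -1.29 in PFMP, -3.01 to -1.09 in GRP3 and -3.18 to -1.07 in GRP2/MP3, and its adjusted p ran from 0.0118 to 1.00. The block raised the genes called from 210, 316, 290 and 308 to 576, 771, 719 and 851 in BNAP/GRP1, PFMP, GRP3 and GRP2/MP3.

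The count of 4 members with batch 3 above all other libraries was 4 to 6 when 1 library was left out, and 5 with median-of-ratios scaling, which added *Sftpc*. That scaling moved the median member sum of batch 3 from 1857 to 2040.4 RPKM, and leaving out 1 batch 3 library gave 1833 to 1869. The AT2 share of 4.64% was 4.61% to 4.71% without 1 batch 3 library, 4.25% without *Sftpc*, 0.711% without *Napsa* (chosen after the data were seen) and 91.3% over all genes of the AT2, AT1 and club lists, in which *Lyz2* and *Cd74* count as AT2 genes. A value listed at 0 does not show that a transcript was missing.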
